A study of Mus musculus with 8 samples.

Results

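The 10 genes described here encode the E2F transcription factors, E2f1 to E2f8, and 2 pocket proteins, Rb1 and Rbl1, which encode the retinoblastoma protein and its relative p107. They were taken by symbol from a table of 24303 genes, and all 10 had a row. The table came from RNA-Seq of 8 libraries, 2 for each of 4 conditions, of mouse CD8 T cells. All came from P14 mice, whose T cell receptor transgene recognizes GP33, a peptide of LCMV. Cells from spleen were activated for 2 days on anti-CD3 and anti-CD28, an activation that every condition shared.

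Effector cells were collected on day 7, and the labels do not spell out their peptide schedule. The other 3 conditions were collected on day 19. Acute-2d cells had no GP33 after the activation, Acute-7d cells had GP33 until day 7 and none afterwards, and T_Dysf cells had GP33 until day 19 with TGF-β1 from day 7. GP33 and TGF-β1 were given together late in the T_Dysf culture, so their parts cannot be told apart, and Effector differs from the rest also in its day. No genotype other than P14 and no animal age is given in the labels. The libraries of a condition are labelled biological replicates.

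The deposited values are counts divided by a size factor of each library, called normalized counts below. The steps between the values put 19381799 to 24856512 reads on genes in each library. The markers of CD8 T cells (Cd3e, Cd3g, Cd8a, Cd8b1 and Cd247) summed to 46130 to 62600 normalized counts outside T_Dysf and to 108300 and 113000 in T_Dysf. B cell markers summed to at most 53.2 and erythroid markers to at most 42.6. Over all libraries, myeloid markers summed to 262.6 to 648 and dendritic cell markers to 101 to 545.5. The CD4 T cell markers Cd4 and Zbtb7b summed to 1042 to 1626, with Cd4 itself at most 13.0. The plasma cell markers Sdc1 and Jchain summed to 7.07 to 23.8 in the other conditions and to 349 and 423 in T_Dysf, while the NK cell markers Ncr1 and Klrb1c summed to 1035 and 1489 in Acute-7d and to 245 to 568 elsewhere. Their part in the results was not tested. A name prefix, RESUB, is shared by Acute-7d replicate 1 and the Effector pair only; what it stands for is not stated.

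E2F proteins control the genes a cell needs to copy its DNA. In a resting cell, pocket proteins bind E2Fs and hold these genes down, and when receptor and cytokine signals activate cyclin-dependent kinases, the phosphorylated pocket proteins let go. E2f1, E2f2 and E2f3 encode the activators, E2f4 and E2f5 the factors that work with pocket proteins in repression, E2f6 a factor that binds no pocket protein and acts with Polycomb proteins, and E2f7 and E2f8 the atypical members, which bind DNA without a DP partner and shut target genes off late in S phase. Several of these genes are E2F targets themselves, and in mouse T cells E2f2 is also known as a brake on division.

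E2F sites lie in the promoters of family members, so the bases before the start of 4 members are shown, in GRCm38.p6 as RefSeq gives them. They are the members with an E2F word before the start, E2f3 at chr13:29986064-29986313 on the minus strand, E2f7 at chr10:110745189-110745438 on the plus strand and Rbl1 at chr2:157204535-157204784 on the minus strand, and the member with a CHR word and no E2F word, E2f8 at chr7:48881597-48881846 on the minus strand. Each run reads 5′ to 3′ on the gene's strand and ends at the base before the start. Capitals mark the words searched for, on either strand.
E2f3: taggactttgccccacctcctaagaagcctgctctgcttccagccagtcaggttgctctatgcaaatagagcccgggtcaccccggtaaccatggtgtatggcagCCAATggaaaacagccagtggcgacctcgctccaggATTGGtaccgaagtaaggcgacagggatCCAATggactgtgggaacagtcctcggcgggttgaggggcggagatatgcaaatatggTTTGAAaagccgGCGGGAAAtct
E2f7: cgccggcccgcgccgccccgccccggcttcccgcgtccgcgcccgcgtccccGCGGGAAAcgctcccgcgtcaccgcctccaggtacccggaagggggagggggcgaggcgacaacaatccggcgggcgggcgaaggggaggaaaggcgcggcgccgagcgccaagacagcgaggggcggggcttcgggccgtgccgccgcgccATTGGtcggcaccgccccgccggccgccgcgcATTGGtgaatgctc
E2f8: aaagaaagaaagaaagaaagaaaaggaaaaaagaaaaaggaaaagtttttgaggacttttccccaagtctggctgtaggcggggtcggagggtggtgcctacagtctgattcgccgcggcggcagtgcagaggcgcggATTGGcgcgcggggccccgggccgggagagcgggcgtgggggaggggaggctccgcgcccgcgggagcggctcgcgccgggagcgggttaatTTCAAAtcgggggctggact
Rbl1: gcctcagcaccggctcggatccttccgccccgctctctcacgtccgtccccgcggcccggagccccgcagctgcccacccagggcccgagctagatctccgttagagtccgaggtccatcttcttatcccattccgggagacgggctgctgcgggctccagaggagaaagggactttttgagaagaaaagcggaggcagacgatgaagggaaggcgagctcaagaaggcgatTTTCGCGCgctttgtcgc

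The E2F words were TTTCGCGC, TTTGGCGC, TTTCCCGC and TTTGCCGC, the CHR words, known from genes of G2 and mitosis, were TTTGAA and TTCGAA, and the last word was CCAAT. The matches in these 4 runs do not overlap each other. In E2f3 the E2F word began 11 bases before the start in reverse, and a CHR word began 23 bases before it. In E2f7 the E2F word began 198 bases before the start, also in reverse. In Rbl1 the E2F word began 18 bases before the start, and in E2f8 a reversed CHR word began 20 bases before it. RefSeq windows of 300 bases, 250 before and 50 after the start, were at hand for 7 of the 10 members, and 4 of the 7 held an E2F word, the fourth being E2f2 with TTTGGCGC 40 bases after its start. The window of E2f1, counted among those without the word, overlaps a coding exon in the 250 bases before its start. An E2F word was found in 2.33% of the windows of 27025 genes, CCAAT in 38.0% and a CHR word in 19.5%. CCAAT was in 4 of the 7 members' windows and a CHR word in 2. Of the other genes of the pathway, 10 of 22 S-phase targets with a window held an E2F word, and 9 of 11 G2/M genes held a CHR word. These matches are descriptions of the letters, not of binding.

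All 10 genes were expressed in every condition, with a mean of at least 50 normalized counts each. The fewest reads behind a value were 48 for E2f7 and 57 for E2f8, both in Acute-7d replicate 1, and at least 107 for the other members. In the plot of values by library, E2f1, E2f2, E2f3, E2f7 and E2f8 were highest in Effector, and Rb1 was highest in T_Dysf. Changes below are on the log2(normalized count + 1) scale from a limma fit of all 8 libraries, with the standard error (SE) and the Benjamini-Hochberg adjusted p over all 24303 genes. A gene was called higher or lower where the fold was at least 2 and the adjusted p under 0.05. The p-values measure only the spread between the 2 libraries of a condition, pooled over the 4 conditions and moderated over all genes. With 2 libraries against 2, an exact permutation test of a single gene cannot go below p = 0.333 (two-sided).

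**Figure D1:**
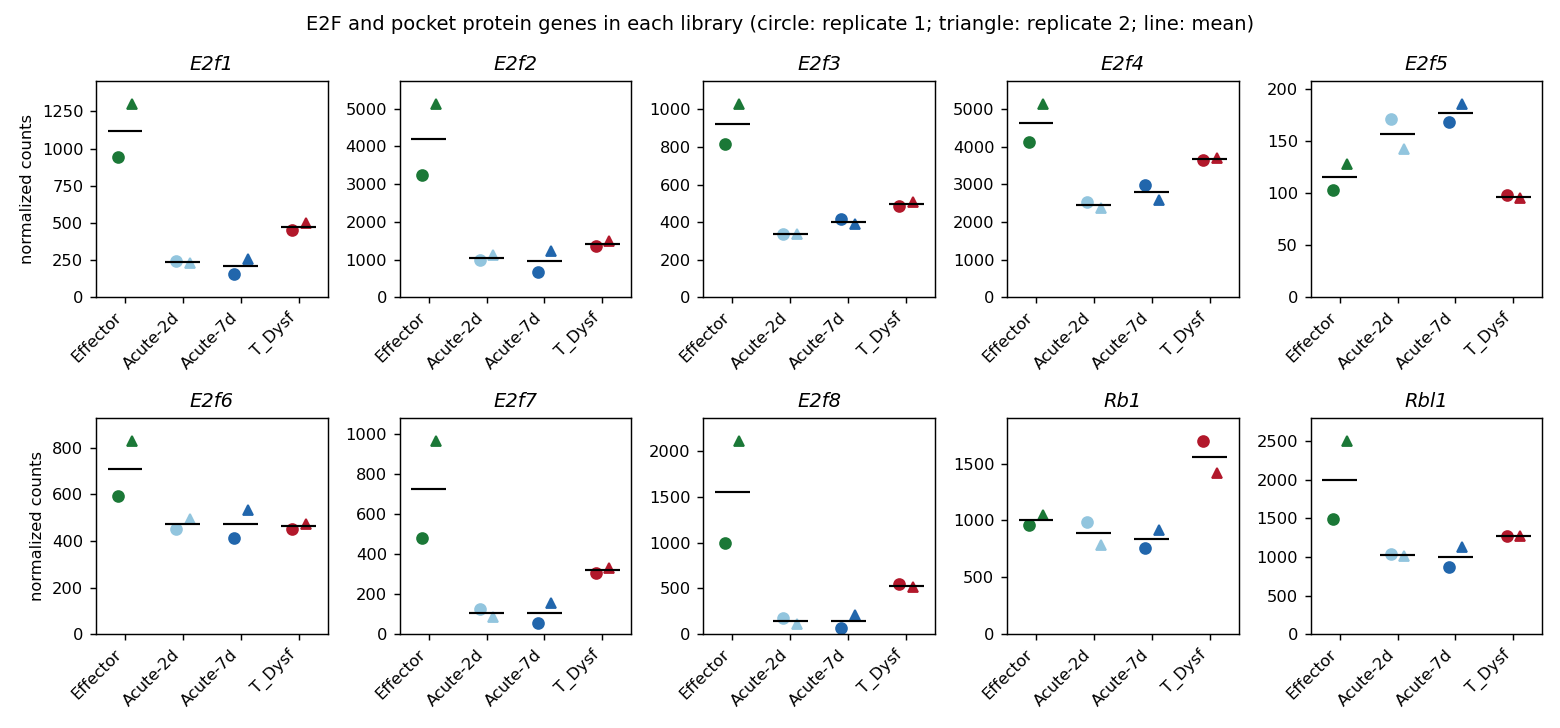
Normalized counts of the 10 genes in each of the 8 libraries, on linear axes from 0 with a scale per gene. Circles are replicate 1, triangles replicate 2 and lines the mean of the 2. Effector is highest for 8 genes by the mean, Rb1 is highest in T_Dysf at 1413 and 1699, and E2f5 is lowest in T_Dysf at 95.2 and 98.4.

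Among the activators, E2f1 (chr2:154559407-154569892) had 940.3 and 1298 normalized counts in the Effector libraries, 247 and 229 in Acute-2d, 159.5 and 259.5 in Acute-7d, and 456 and 497 in T_Dysf. The 3 levels did not overlap: Effector lay highest, T_Dysf between, and both Acute conditions lowest and mixed with each other. E2f1 rose in Effector by 2.43 over Acute-7d (SE 0.28, adjusted p = 0.0151), a fold of 5.41, and by 2.21 over Acute-2d (adjusted p = 0.0152). T_Dysf lay below Effector by a log2 change of -1.21 (adjusted p = 0.049), the only call among the members in that comparison. T_Dysf differed from Acute-7d by 1.22 (SE 0.28, adjusted p = 0.0646) and from Acute-2d by 0.997 (adjusted p = 0.0914), short of a call.

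E2f2 (chr4:136172394-136196057) had 3253 and 5117 normalized counts in Effector, 988 and 1117 in Acute-2d, 683 and 1235 in Acute-7d, and 1358 and 1496 in T_Dysf. Both T_Dysf libraries lay above all 4 Acute libraries and far below Effector. The rise in Effector was 2.15 over Acute-7d (SE 0.35, adjusted p = 0.026) and 1.96 over Acute-2d (adjusted p = 0.0293). T_Dysf differed from Acute-7d by 0.63 (adjusted p = 0.338) and from Effector by -1.52 (SE 0.35, adjusted p = 0.0511). The E2f2 and E2f1 gaps between T_Dysf and Effector were thus of like size, on either side of the threshold.

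E2f3 (chr13:29906575-29986063) had the tightest replicates of the activators, with 817 and 1027 normalized counts in Effector, 335 and 338 in Acute-2d, 415 and 389 in Acute-7d, and 484 and 509.8 in T_Dysf. No 2 conditions overlapped. E2f3 rose in Effector by 1.19 over Acute-7d (SE 0.12, adjusted p = 0.0129) and by 1.44 over Acute-2d (adjusted p = 0.00883). T_Dysf lay 0.56 above Acute-2d (adjusted p = 0.0477) and was -0.88 against Effector (adjusted p = 0.0143), both under a fold of 2. Its difference from Acute-7d was 0.31 (adjusted p = 0.192).

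The atypical members had the widest range. E2f7 (chr10:110745439-110787384) had 481 and 964 normalized counts in Effector, 126 and 85.3 in Acute-2d, 53.6 and 156 in Acute-7d, and 308 and 330.1 in T_Dysf. E2f8 (chr7:48866429-48881596) had 1002 and 2114 in Effector, 172 and 110.1 in Acute-2d, 63.5 and 214 in Acute-7d, and 547 and 513 in T_Dysf. For both genes the T_Dysf pair was tight and lay above all Acute and below both Effector libraries, while the Effector pair and the Acute-7d pair each spread over 2-fold or more. E2f8 rose in Effector by 3.63 over Acute-7d (SE 0.69, adjusted p = 0.0336), a fold of 12.4 and the largest change of any member, and by 3.39 over Acute-2d (adjusted p = 0.0376). E2f7 rose by 2.88 over Acute-7d (SE 0.61, adjusted p = 0.0432) and by 2.70 over Acute-2d (adjusted p = 0.0483). Over 17 alternatives of each of these comparisons, E2f7 was called in 6 and E2f8 in 8.

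T_Dysf against Acute-7d, E2f8 differed by 2.17 (SE 0.69, adjusted p = 0.131) and E2f7 by 1.79 (SE 0.61, adjusted p = 0.153), larger differences than that of E2f1 with larger errors. The value depended on the Acute-7d pair: E2f8 differed by 1.30 without Acute-7d replicate 1 and by 3.04 without replicate 2, and E2f7 by 1.03 and 2.55. Against Acute-2d, E2f8 differed by 1.94 (adjusted p = 0.152) and E2f7 by 1.61 (adjusted p = 0.176). Exon bases of E2f8 overlap Gm2788 on the opposite strand, and since the strand setting of the counting is not given, reads in the overlap cannot be told apart.

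Of the factors that work with pocket proteins, E2f4 (chr8:105297663-105305370) had 4116 and 5124 normalized counts in Effector, 2536 and 2380.4 in Acute-2d, 2982 and 2592 in Acute-7d, and 3647 and 3701 in T_Dysf. The order of conditions was that of E2f3, without overlap, at smaller folds. Effector lay 0.90 above Acute-2d (SE 0.13, adjusted p = 0.0187) and 0.72 above Acute-7d (adjusted p = 0.0296), folds of 1.87 and 1.65. T_Dysf differed from Acute-7d by 0.40 (adjusted p = 0.134) and from Acute-2d by 0.58 (adjusted p = 0.0533).

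E2f5 (chr3:14578641-14606309) ran the other way. It had 103 and 128 normalized counts in Effector, 172 and 142.5 in Acute-2d, 168 and 186 in Acute-7d, and 98.4 and 95.2 in T_Dysf. All 4 Acute libraries lay above all 4 others. T_Dysf against Acute-7d was -0.86 (SE 0.16, adjusted p = 0.0434), 0.55 of the Acute-7d level and so short of a 2-fold fall. T_Dysf against Acute-2d was -0.69 (adjusted p = 0.0634), and Effector against Acute-7d was -0.62 (adjusted p = 0.0712). Some exon bases of E2f5 overlap 1810022K09Rik on the opposite strand.

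E2f6 (chr12:16810963-16839742) was level on day 19. It had 452 and 492 normalized counts in Acute-2d, 413 and 533 in Acute-7d, and 453 and 475 in T_Dysf, which overlap, against 591 and 829.6 in Effector. T_Dysf differed from Acute-7d by -0.02 (SE 0.20, adjusted p = 1), with a 95% interval of 0.53 on either side. Effector differed from Acute-7d by 0.58 (adjusted p = 0.136).

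Of the pocket proteins, Rb1 (chr14:73183673-73325822) stood apart. It had 959 and 1043 normalized counts in Effector, 986 and 785 in Acute-2d, 753 and 919 in Acute-7d, and 1699 and 1413 in T_Dysf. Both T_Dysf libraries lay above all 6 others. Both Effector libraries lay above both Acute-7d libraries, and Acute-2d overlapped each of these conditions. T_Dysf against Acute-7d was 0.90 (SE 0.17, adjusted p = 0.044), a fold of 1.86, and against Acute-2d 0.82 (adjusted p = 0.0464), both under 2-fold. Against Effector it was 0.63 (adjusted p = 0.0737), and Effector differed from Acute-7d by 0.27 (adjusted p = 0.386). The adjusted p of the first value ran from 0.011 to 0.181 over 17 alternatives, with the change between 0.75 and 1.04. Rb1 shares exon bases with Rcbtb2 on the opposite strand.

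Rbl1 (chr2:157145893-157204534) followed the activators at a smaller scale. It had 1488 and 2504 normalized counts in Effector, 1034 and 1009 in Acute-2d, 868 and 1133 in Acute-7d, and 1278 and 1270.4 in T_Dysf. T_Dysf lay just above the Acute libraries and below Effector, without overlap. Effector differed from Acute-7d by 0.96 (SE 0.27, adjusted p = 0.083) and T_Dysf from Acute-7d by 0.36 (adjusted p = 0.468). Rbl2, which encodes the remaining pocket protein p130 and is no member here, had 2306 and 2007 in Effector and 4026 and 4133 in T_Dysf, with 2986 to 3701 in the Acute libraries. Its change from Effector to T_Dysf was 0.92 (SE 0.12, adjusted p = 0.0131), under 2-fold. Rb1 and Rbl2 were thus both highest in T_Dysf, and Rbl1 was highest in Effector.

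**Figure D2:**
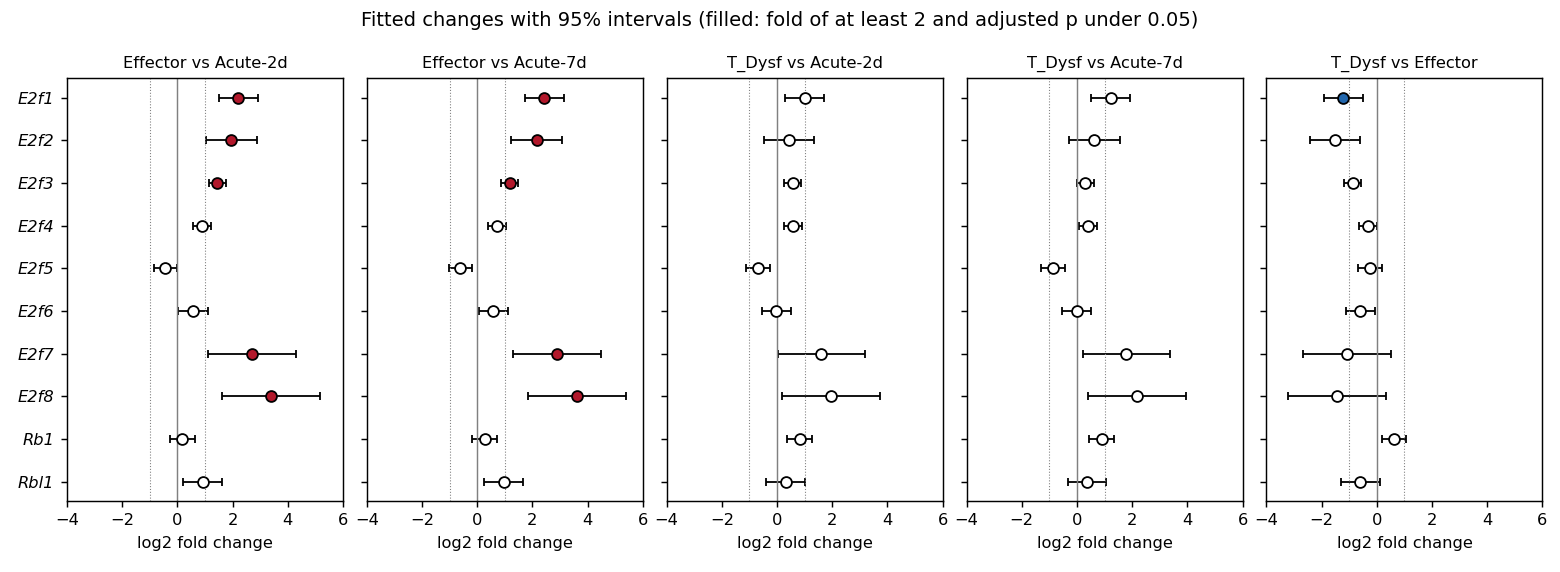
Fitted log2 fold changes of the 10 genes in 5 comparisons; bars are 95% intervals, dotted lines mark a fold of 2, and filled points are called genes. E2f1, E2f2, E2f3, E2f7 and E2f8 are filled in both Effector panels against the Acute conditions, none is filled in T_Dysf against either, and E2f1 alone is filled in T_Dysf against Effector.

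Effector against Acute-7d, which sets day 7 cells beside cells given GP33 until day 7 and then rested to day 19, gave 5 members called higher and 0 lower, E2f1, E2f2, E2f3, E2f7 and E2f8. Among all genes, 4.18% were called higher and 3.88% lower, 1016 and 942 genes, or 813 and 1184 with the libraries scaled to equal 75th percentiles. At an unadjusted p under 0.05 limma had 9 members, Rb1 being the exception, against 30.4% of all genes. The count of 5 fell to 2, E2f1 and E2f3, without Effector replicate 2, either Acute-2d or either T_Dysf library, and to 1, E2f1, without Acute-7d replicate 1. It was 0 in a fit of these 4 libraries alone. Acute-7d replicate 1 shares its name prefix with both Effector libraries and had the lowest value of all 8 for 7 members, E2f1, E2f2, E2f6, E2f7, E2f8, Rb1 and Rbl1.

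Effector against Acute-2d called the same 5 genes higher and 0 lower. Of all genes 4.31% were called higher and 4.48% lower, 1047 and 1088 genes, or 787 and 1410 at equal 75th percentiles. At an unadjusted p under 0.05 there were again 9 members, against 31.2% of all genes. The count of 5 became 1, E2f3, without Effector replicate 2 or either Acute-2d library, and 2 without either T_Dysf library. It was 0 with a term for the RESUB prefix, as also in a fit of these 4 libraries alone. Both Effector and neither Acute-2d library carries the prefix, so the prefix and the conditions cannot be told apart within this comparison. Without Effector replicate 1, E2f7 and E2f8 lost their calls over both Acute conditions, while Rbl1 gained a call over both and E2f4 over Acute-2d. In every alternative 9 of the 10 member changes stayed above 0. Both comparisons share the Effector libraries, so their counts are not independent.

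T_Dysf against Acute-7d, which sets continued GP33 with TGF-β1 beside rest from day 7, gave 0 members called in either direction by limma, while 6 had an unadjusted p under 0.05, against 26.1% of all genes, and E2f5 and Rb1 an adjusted p under 0.05 at under 2-fold. Of all genes 2.54% were called higher and 3.03% lower. The count depended on the filter. Among the 12028 genes with a mean of at least 50 normalized counts, 3 members were called higher, E2f1 (adjusted p = 0.0161), E2f8 (adjusted p = 0.0331) and E2f7 (adjusted p = 0.0454), at the same fold changes. Of those genes 5.92% were called higher. The same 3 were called among genes with a maximum of at least 50, where 831 genes were called higher. How many genes passed this filter is not given here, so the 831 cannot be read as a share. That filter was tried after the data were seen because the study used one.

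T_Dysf against Acute-2d also gave 0 members called in limma, and E2f3 and Rb1 had an adjusted p under 0.05 at under 2-fold. There were 7 members with an unadjusted p under 0.05, against 27.7% of all genes. Of all genes 3.14% were called higher and 4.21% lower. With the filter on the mean, E2f8 was called higher (adjusted p = 0.0427), as were 6.29% of the genes tested there. The T_Dysf libraries are shared with the comparison before.

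T_Dysf against Effector gave 1 member called lower, E2f1, and 0 higher, with 5 at an unadjusted p under 0.05, against 31.7% of all genes. Of all genes 4.47% were called higher and 4.75% lower. Without Effector replicate 2, either Acute-2d or either T_Dysf library the count was 0, without either Acute-7d library it was 2 with E2f2 added, and without Effector replicate 1 the call was E2f3 instead of E2f1. With a RESUB term it was 0, and since both Effector and neither T_Dysf library carries the prefix, the prefix and the conditions cannot be told apart within this comparison.

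Acute-7d against Acute-2d sets 7 days of stimulation beside 2 days, with both collected on day 19. The length of stimulation and the length of rest thus cannot be told apart in it. This comparison gave 0 members called in limma and 0 at an unadjusted p under 0.05, against 7.31% of all genes. Changes ran from -0.23 for E2f8 to 0.26 for E2f3. Of all genes 0.0782% were called higher and 0.0905% lower, 19 and 22 genes, or 6 and 2 after quantile normalization. The 95% interval for E2f8 was 1.78 on either side, so a 2-fold difference in E2f8 was not detectable here.

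With Effector and T_Dysf averaged and set against the mean of both Acute conditions, 4 members were called higher and 0 lower, E2f8 at 2.78 (SE 0.49, adjusted p = 0.0221), E2f7 at 2.25 (adjusted p = 0.028), E2f1 at 1.72 (SE 0.20, adjusted p = 0.00878) and E2f2 at 1.30 (adjusted p = 0.0279). Of all genes 3.74% were called higher and 4.44% lower, 909 and 1080, or 725 and 1316 at equal 75th percentiles. E2f3 at 0.87 (adjusted p = 0.0065), E2f4 at 0.65 (adjusted p = 0.0131), Rb1 at 0.54 (adjusted p = 0.0399) and E2f5 at -0.65 (adjusted p = 0.023) passed the p but not the fold. The count fell to 1, E2f1, without Effector replicate 2, either Acute-2d or either T_Dysf library, and to 2, E2f1 and E2f8, without Acute-7d replicate 1.

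Separation of the libraries gave the same order without a test. In 7 members all 4 Effector and T_Dysf libraries lay above all 4 Acute libraries, which held for 9.16% of all genes, and in 1 member, E2f5, all lay below, which held for 9.95%. E2f6 and Rb1 overlapped. T_Dysf alone lay above both Acute conditions for 8 members, against 20.3% of all genes, and below for 1, E2f5, against 21.1%. T_Dysf lay below both Effector libraries for 9 members, against 29.7% of all genes, and above for 1, Rb1, against 26.8%. Counts without any 1 library or at equal 75th percentiles stayed within 1 gene of these.

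Per kb of the longest coding transcript, which lets genes be compared, E2f4 was the most abundant member in every condition, with 2320 normalized counts per kb in Effector and 1230 to 1840 on day 19. E2f2 followed in Effector at 883 per kb. E2f7 was lowest in the Acute conditions at 19.3 and 19.1 per kb, and E2f5 was lowest in Effector at 65.1 and in T_Dysf at 54.4 per kb. Rb1 went from the seventh of the 10 in Effector at 215 ± 12.7 per kb (SD, n = 2) to the second in T_Dysf at 334 ± 43.4, where E2f2 stood at 301 ± 20.6 per kb, within the spread. E2f8 went from the third in Effector at 422 ± 213 per kb to the ninth in both Acute conditions at 38.2 ± 11.8 and 37.6 ± 28.8.

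**Figure D3:**
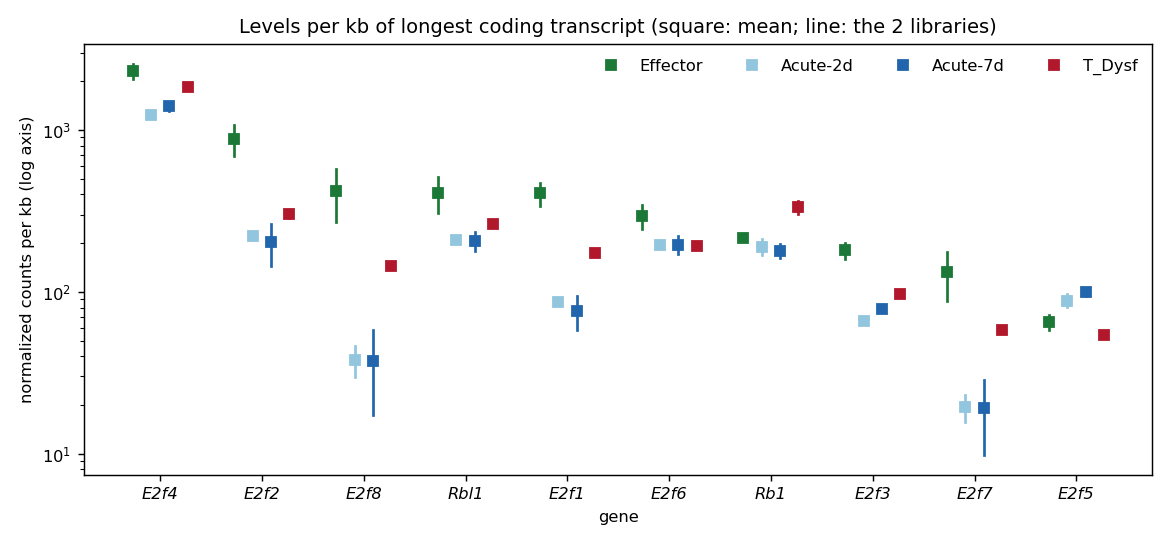
Normalized counts per kb of the longest coding transcript, on a log axis, by gene and condition; squares are means and lines join the 2 libraries. E2f4 lies above all others in every condition, and the distance from Effector to the Acute conditions is widest for E2f8, from 422 to 38.2 and 37.6.

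The DP partner Tfdp1, which pairs with E2f1 to E2f6, rose in Effector by 1.54 over Acute-7d (SE 0.21, adjusted p = 0.0194) and by 1.46 over Acute-2d (adjusted p = 0.0188), and was lower in T_Dysf than in Effector, at -1.01 (adjusted p = 0.038). It had 3327 and 5144 normalized counts in Effector, 1381 to 1534 in the Acute libraries, and 2122 and 1976 in T_Dysf. The other partner Tfdp2 differed between Effector and Acute-2d by -0.65 (adjusted p = 0.0447), under 2-fold. The Tfdp1 call against Acute-7d was lost without either Acute-7d or either T_Dysf library, the call against Acute-2d without either Acute-2d or either T_Dysf library, and the call against Effector without any library but Effector replicate 1.

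The DREAM complex joins E2f4 or E2f5, p107 or p130 and the MuvB core, and the core later joins Mybl2 and Foxm1 to drive mitotic genes. Of 7 such genes, 3 were called higher in Effector than in Acute-7d, Mybl2 at 3.40 (SE 0.60, adjusted p = 0.0296), Foxm1 at 2.46 (adjusted p = 0.0391) and the DNA-binding core member Lin54 at 1.57 (adjusted p = 0.0237), and the list median was 1.02 against 0 over all genes. The same 3 were called over Acute-2d. In T_Dysf against Acute-7d limma called 0 of 7, with 3 at an unadjusted p under 0.05, and the largest differences were Mybl2 at 1.71 (adjusted p = 0.16) and Foxm1 at 1.37 (adjusted p = 0.17). Among genes with a mean of at least 50, 1 of the 7 was called higher, Mybl2 (adjusted p = 0.0471). Lin54 was called lower in T_Dysf than in Effector, at -1.32 (adjusted p = 0.0296), a call lost without Effector replicate 2, either Acute-7d or either T_Dysf library. Lin37, a core member known for repression in resting cells, was highest in T_Dysf with 569.7 and 486 normalized counts against 322 to 432 elsewhere, a difference of 0.49 from Acute-7d (adjusted p = 0.16). The count of 3 over Acute-7d was 0 without Effector replicate 2, Acute-7d replicate 1 or either T_Dysf library, 1 without either Acute-2d library and 2 without the remaining ones, and the count over Acute-2d was 0 without Effector replicate 2, either Acute-2d or either T_Dysf library.

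Upstream, 13 genes of G1 control were followed, the cyclins and kinases that phosphorylate pocket proteins and the inhibitors of those kinases. In T_Dysf against Acute-7d 2 were called higher and 1 lower. These are named after their values were seen. Ccne1, cyclin E1, had 122 and 171 normalized counts in Acute-7d, 413 and 427 in T_Dysf, and 992 and 1709 in Effector. The change from Acute-7d to T_Dysf was 1.54 (SE 0.31, adjusted p = 0.0492). The kinase of cyclin E1, Cdk2, had 417 and 543 in Acute-7d, 993 and 992 in T_Dysf, and 1625 and 2333 in Effector. From Acute-7d to T_Dysf Cdk2 rose by 1.06 (SE 0.21, adjusted p = 0.0475). For both genes T_Dysf thus lay between Acute-7d and Effector. Ccnd2, cyclin D2, had 6343 and 7093 in T_Dysf and 12280.1 to 16063 in the other 6 libraries, a log2 change of -1.12 from Acute-7d (SE 0.15, adjusted p = 0.02). All 3 calls were lost without either Acute-2d, either Acute-7d or either T_Dysf library.

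Of the inhibitors, Cdkn1b and Cdkn2a are also named after their values were seen. Cdkn1b, p27, was highest in the Acute conditions. It had 4672 to 6000 normalized counts in the Acute libraries, 1868 and 1965 in Effector, and 2472 and 2543 in T_Dysf. T_Dysf against Acute-7d was -0.94 (SE 0.12, adjusted p = 0.0165), just under 2-fold, and against Acute-2d -1.09 (adjusted p = 0.00923). Cdkn2a encodes products that restrain the cell cycle through the RB and p53 pathways. It had 35.8 and 36.7 in Acute-2d, 52.4 and 90.9 in Acute-7d, 142 and 169 in Effector, and 145 and 222 in T_Dysf. T_Dysf was thus level with Effector, at a difference of 0.21 (adjusted p = 0.757). T_Dysf rose over Acute-2d by 2.27 (SE 0.35, adjusted p = 0.0211) and differed from Acute-7d by 1.36 (adjusted p = 0.0836). Without either Acute-2d or either T_Dysf library 0 genes of the list were called higher over Acute-2d, Cdkn2a included. The 2 lower calls against Acute-2d, Ccnd2 and Cdkn1b, became 1 without Acute-2d replicate 1 and 0 without Acute-2d replicate 2 or T_Dysf replicate 1.

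The 27 E2F targets of S phase encode the helicase, polymerase and nucleotide enzymes of DNA replication and their relatives. All 27 changes of Effector over either Acute condition were above 0. Of these, 24 were called higher over Acute-7d and 23 over Acute-2d, with list medians of 2.54 and 2.25 against 0 over all genes. In T_Dysf against Acute-7d 26 of 27 differences were above 0, with a median of 1.13, but 1 was called, Gins1, a helicase subunit, at 2.38 (SE 0.46, adjusted p = 0.0459). It had 22.3 and 54.5 normalized counts in Acute-7d and 187 and 185 in T_Dysf. A further look after the values were seen found Cdt1, which loads the helicase, as the exception, with 885 and 979 in Acute-7d, 942 and 905 in T_Dysf, and 1881 and 2774 in Effector. In T_Dysf against Acute-2d limma called 0 of 27, with 12 at an unadjusted p under 0.05 and a median of 1.05, and 1 was called without any 1 Effector or Acute-7d library. T_Dysf against Effector gave 6 of 27 called lower, with a median of -1.30.

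These counts also moved with the filter and with single libraries. Among genes with a mean of at least 50, 10 of 27 were called higher in T_Dysf than in Acute-7d, 11 higher than in Acute-2d and 18 lower than in Effector. Of all 12028 genes tested there, 712 and 757 were called higher and 1221 lower, in the same order. The 24 calls over Acute-7d became 21 without Effector replicate 1, 9 without Effector replicate 2, 10 without either Acute-2d library, 1 without Acute-7d replicate 1, 12 without Acute-7d replicate 2 and 2 without either T_Dysf library. The 23 calls over Acute-2d became 9 without Effector replicate 2, 0 without either Acute-2d library and 4 without either T_Dysf library. The Gins1 comparison had 2 calls without Acute-7d replicate 2 and 0 without any other library. The 6 lower calls became 13 without Effector replicate 1, 1 without Effector replicate 2 or either Acute-2d library and 0 without either T_Dysf library. In every one of these fits all 27 fold changes of Effector over either Acute condition were above 0.

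The 12 G2/M genes under DREAM and Foxm1 control gave the largest medians, 3.41 in Effector over Acute-7d with 11 called, 2.88 over Acute-2d with 8 called, and 1.84 in T_Dysf against Acute-7d where limma called 0 and gave 11 an unadjusted p under 0.05. Among genes with a mean of at least 50, that last comparison had 11 called, T_Dysf against Acute-2d had 4 called higher and T_Dysf against Effector 4 called lower. Of all 12028 genes tested there, 712 and 757 were called higher and 1221 lower, in the same order. Mki67, which encodes the proliferation marker Ki-67, had 16144 and 28620.2 normalized counts in Effector, 3049.97 and 1817 in Acute-2d, 1096 and 3371 in Acute-7d, and 6848 and 6734 in T_Dysf. It rose in Effector by 3.48 over Acute-7d (SE 0.63, adjusted p = 0.0308), and T_Dysf differed from Acute-7d by 1.82 (adjusted p = 0.156). In bulk RNA, more cycling cells and more RNA per cycling cell cannot be told apart. Over Acute-7d the count of 11 was 12 without Acute-7d replicate 2, 3 without Acute-7d replicate 1, 2 without Effector replicate 1, 1 without either Acute-2d library and 0 without Effector replicate 2 or either T_Dysf library. Over Acute-2d the count of 8 was 11 without either Acute-7d library, 2 without Effector replicate 1 and 0 without any of the remaining libraries. The 0 calls in T_Dysf against Acute-7d became 5 without Acute-7d replicate 2. T_Dysf against Acute-2d also had 0 called in limma, with 5 at an unadjusted p under 0.05 and a median of 1.51, and 3 were called without either Acute-7d library. T_Dysf against Effector had 0 called in limma, with 3 at an unadjusted p under 0.05 and a median of -1.35, and 4 were called lower without either Acute-7d library.

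**Figure D4:**
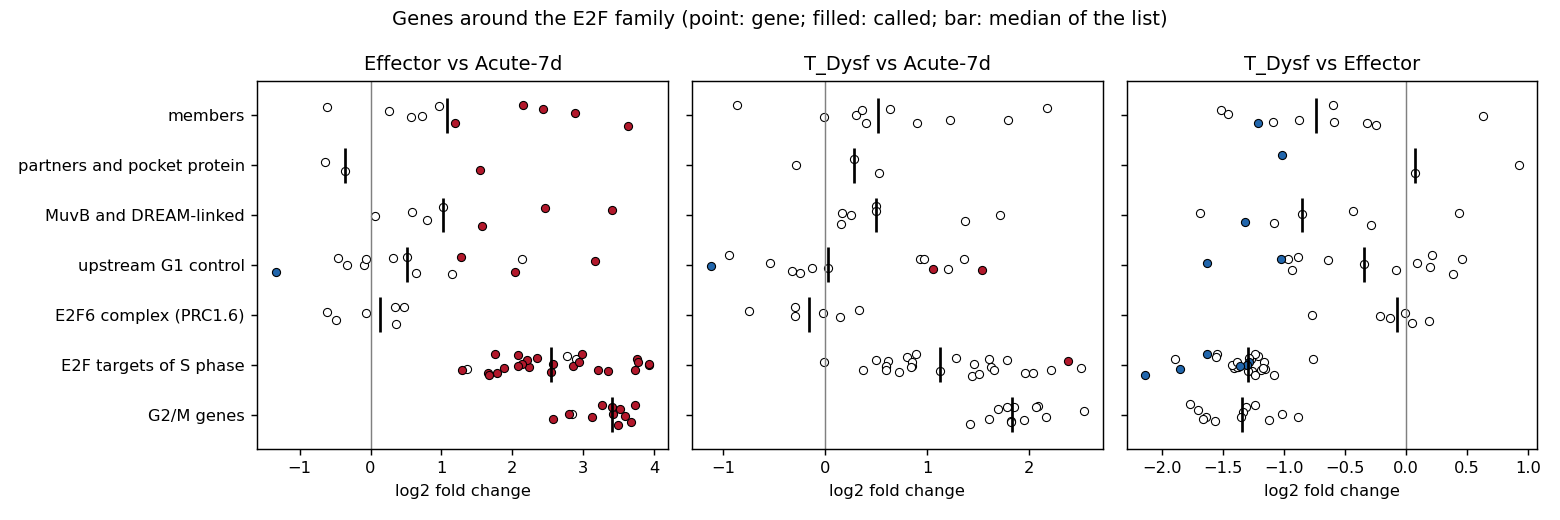
Fitted log2 fold changes of the members and of 6 lists of related genes in 3 comparisons, each with its own axis; each point is a gene, filled where called, and bars are list medians. S-phase targets have medians of 2.54, 1.13 and -1.30 and G2/M genes of 3.41, 1.84 and -1.35. The E2F6 complex has medians of 0.136, -0.158 and -0.072.

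The partners of E2f6 in its Polycomb complex had 0 of 6 called by limma in each of the 7 comparisons. At an unadjusted p under 0.05 there were 1 to 4 of 6, against 7.31 to 31.7% of all genes between single conditions. In T_Dysf against Acute-7d Mga, the scaffold of the complex, differed by -0.75 (adjusted p = 0.053). Some partners passed the adjusted p at under 2-fold. L3mbtl2 differed by 0.80 in Effector against Acute-2d (adjusted p = 0.0248) and Pcgf6 by -0.77 in T_Dysf against Effector (adjusted p = 0.0232). With Effector and T_Dysf averaged against both Acute conditions, Mga differed by -0.62 (adjusted p = 0.0232) and L3mbtl2 by 0.47 (adjusted p = 0.0299). Of 5 germline genes known as E2F6 targets, 2 had a row. Tuba3a, a tubulin of testis, had 14.5 and 10.1 normalized counts in Acute-7d and 0 and 0.89 in T_Dysf, 1 of these libraries being at 0, and was called lower (adjusted p = 0.0251). The call was lost without either Acute-2d, either Acute-7d or the first T_Dysf library. It was also lost with a pseudocount of 0.1, with a RESUB term and in a fit of the groups compared. Both filters on low values removed Tuba3a before testing, since its mean was 9.17 and its highest value 21.6 normalized counts. The fold of a gene this low depends on the pseudocount and is not given. The remaining one, Stag3, had 13.4 to 44.2 in all libraries and was not called.

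The genes whose log2 values ran most like each member over the 8 libraries were looked up among 12028 genes with a mean of at least 50, as a description. The points share 4 conditions, so a high Pearson r mainly repeats the order of the conditions. E2f8 ran with Asf1b (r = 0.998), Knl1 (r = 0.998) and Phf19 (r = 0.997). E2f7 ran with Phf19 (r = 0.999), Knl1 (r = 0.997) and Armc1 (r = 0.996), and the members E2f7 and E2f8 ran with each other at 0.999. Asf1b encodes a histone chaperone and Knl1 a kinetochore protein, and Phf19 is a Polycomb-associated protein. E2f1 ran with Rad54l (r = 0.998), Uhrf1 (r = 0.996) and AI662270 (r = 0.995). E2f2 ran with Polh (r = 0.998), Tmem168 (r = 0.994) and Tmem70 (r = 0.993). E2f3 ran with Utp6 (r = 0.997), Cox10 (r = 0.994) and Acaca (r = 0.992). Rad54l and Polh act in DNA repair and in copying damaged DNA, and Uhrf1 in the upkeep of DNA methylation. Rbl1 was closest to Mtf2 (r = 0.994), Eri1 (r = 0.991) and Rfc3 (r = 0.99), the last a subunit of the clamp loader of DNA replication. E2f4 was closest to Nans (r = 0.99), Snap29 (r = 0.99) and Gsr (r = 0.986), and E2f6 to Fam111a (r = 0.981), Prdx3 (r = 0.981) and Selenoi (r = 0.981). E2f5 was closest to Wdr44 (r = 0.984), Dph6 (r = 0.972) and Tnfsf8 (r = 0.967), and Rb1 to Glmn (r = 0.977), Cntln (r = 0.974) and Atp6v1e1 (r = 0.97). Against Mki67, r was 0.996 for E2f8, 0.989 for E2f1, 0.474 for Rb1 and -0.604 for E2f5, over the same 8 libraries.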

How the data were processed

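RNA of sorted viable P14 CD8 T cells (2 libraries in each of 4 conditions) was isolated with PicoPure and sequenced after polyA selection. STAR alignments to mm10 were quantified by the authors on RefSeq transcripts, and gene counts were normalized by the median ratio of DESeq2. The deposited signal values are these normalized counts, 1 column per library, with 0 columns unused. Steps between values gave the reads per library, but 55.2 to 76.1% of values under 1000 reads came out whole, so raw counts were not rebuilt and no count model was used.

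Values were tested as log2(normalized count + 1) in R 4.3.3 by limma 3.58.1 (moderated test with a mean-variance trend, 4 group means, 4 residual degrees of freedom, two-sided, Benjamini-Hochberg over 24303 genes) with no filter on low values; the fit was checked on simulated data. Other steps used pandas 2.3.3 and numpy 2.4.6 in Python 3.11.15, and figures matplotlib 3.10.9. Gene positions and lengths came from the GENCODE annotation of GRCm38 and start windows from RefSeq on GRCm38.p6.

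Alternatives were other pseudocounts, filters on low values, 2 other scalings, a replicate block, a RESUB term, a fit of the compared groups only, and leaving out each library. All 10 members were named, as were partner, MuvB and DREAM genes; of the targets, up to 4 called genes with the largest change in T_Dysf against Acute-7d in each direction plus Mki67; and the 3 genes most like each member. Exceptions are marked. The members and lists were chosen with earlier results of these data known.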

Additional observations from a re-analysis of the deposited data

How the results depend on the processing

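Of 1044 member changes over 62 member comparisons and their alternatives, 926 kept direction and side of the threshold, 91 lost and 20 gained a call, and 7 changed sign, in 3 comparisons. Those were E2f6 in T_Dysf against Acute-7d, from -0.2 to 0.168 without 1 library, E2f6 against Acute-2d, from -0.085 to 0.038, and E2f8 in Acute-7d against Acute-2d, from -1.102 to 0.635, with 0.635 also under the RESUB term. The numbers of members called were, without 1 library, 0 to 0 for T_Dysf against Acute-7d, against Acute-2d and for Acute-7d against Acute-2d, 0 to 2 for T_Dysf against Effector, 1 to 4 for Effector against Acute-7d, 1 to 5 against Acute-2d and 1 to 4 for the averaged comparison. Filters on the mean or the maximum gave 3 in T_Dysf against Acute-7d, 1 against Acute-2d and 2 against Effector. Over all genes, the filters on the mean and the maximum called 1477 and 1712 against Acute-7d, where the main fit called 1353. They called 1697 and 1989 against Acute-2d (main 1787) and 2218 and 2532 against Effector (main 2241), with fewer genes tested than in the main fit. For T_Dysf against Effector the count of 1 became 0 with a pseudocount of 0.1, the RESUB term or the fit of the compared groups, and 2 with a pseudocount of 10, equal 75th percentiles or quantile normalization. Effector against Acute-7d gave 0 in the fit of the compared groups, and Effector against Acute-2d gave 0 there and under the RESUB term. Within Effector against Acute-2d the prefix and the conditions cannot be told apart.

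Whether replicate numbers pair the libraries is not stated in the labels. Over 12028 genes the replicate differences of 6 pairs of conditions correlated at -0.199 to 0.197, and 2 exceeded 0.1. With a single replicate difference per condition, these values cannot settle the pairing. With a replicate block, 3 members instead of 5 were called in Effector against either Acute condition, 1 in T_Dysf against Effector (E2f2 in place of E2f1), and the other counts did not change.

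Over all genes, calls ranged from 422 to 1712 around 1353 for T_Dysf against Acute-7d, 656 to 1989 around 1787 against Acute-2d, 386 to 2532 around 2241 against Effector, 155 to 2176 around 1958 for Effector against Acute-7d, 235 to 2370 around 2135 against Acute-2d, 1 to 376 around 41 for Acute-7d against Acute-2d, and 954 to 2041 around 1989 for the averaged comparison, which has no fit of compared groups. With equal 75th percentiles the median of all genes went from 0 to -0.11 in Effector against Acute-2d and from -0.022 to -0.12 in the averaged comparison; none of the 62 member comparisons changed direction under either scaling. The causes were not tested. The 2 libraries per condition limit all values.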

Other observations

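Ratios of 2 genes within a library do not depend on the scaling of the libraries. E2f1 over Rb1, in normalized counts not divided by length, was 0.98 and 1.24 in Effector, 0.251 and 0.292 in Acute-2d, 0.212 and 0.282 in Acute-7d, and 0.268 and 0.352 in T_Dysf. T_Dysf thus overlapped the Acute conditions in this ratio, although its E2f1 and its Rb1 each lay above all of their libraries. Rbl1 over Rb1 was 1.55 and 2.4 in Effector, 1.05 to 1.29 in the Acute libraries and 0.752 and 0.899 in T_Dysf, so T_Dysf lay lowest without overlap. E2f8 over Mki67 was 0.0799 and 0.0762 in T_Dysf, above the 0.0563 to 0.0739 of the other 6 libraries. E2f8 itself ran from 63.5 to 2114 normalized counts over all 8 libraries. E2f1 over Mki67 was 0.0582 and 0.0454 in Effector, 0.0665 and 0.0739 in T_Dysf, and 0.077 to 0.146 in the Acute libraries. E2f2 over E2f1 was 2.98 and 3.01 in T_Dysf, below the 3.46 to 4.88 of the other 6 libraries. These ratios were chosen after their values were seen and were not tested.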
